A study of Homo sapiens with 10 samples.

Results

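The genes described here encode the machinery that carries a newly made secretory or membrane protein into the endoplasmic reticulum (ER) and processes it there. They are 36 of the 60168 genes in the deposited transcript tables, listed by symbol from 8 complexes: the signal recognition particle (SRP, 6 genes), the SRP receptor (2), the SEC61 channel (4), SEC62 and SEC63 (2), the translocon-associated protein complex (TRAP, 4), signal peptidase (5), signal peptide peptidase (1) and the oligosaccharyltransferase (OST, 12). All 36 of 36 passed the filter on low counts that left 15768 genes to test.

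SRP binds the signal peptide of a nascent chain and docks the ribosome on its receptor in the ER membrane. The chain then passes through the SEC61 channel, with SEC62, SEC63, TRAP and the TRAM proteins beside it, signal peptidase removes the signal peptide, and OST transfers a preassembled glycan onto asparagines of the chain. TRAM2 belongs to the TRAM family of membrane proteins that contact translocating chains at this site.

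Polyadenylated RNA of MCF10A, a non-transformed human mammary epithelial cell line, was sequenced from 10 libraries in 3 groups, all transduced and antibiotic-selected. MCF10A-control carried empty vector (libraries A to D), MCF10A-TRAM2 carried the TRAM2 open reading frame in a pCDH-CMV-EF1-Puro vector (A to D), and MCF10A-YAP5SA carried constitutively active YAP in a pLenti hPGK-Blast vector with an EF1 promoter (A and B). Which backbone the empty-vector cells carried, and whether the lines were pools or clones, was not stated in the sources read, so the vector backbone and the transgene cannot be told apart in the comparisons with control. The deposited design text speaks of 3 biological replicates a group, which the labels (4, 4 and 2) do not match, and nothing says that the libraries came from separate cultures, so the p-values measure the spread between these samples, which may be technical.

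The libraries held between 8489854 and 16314438 estimated counts. MCF10A-control A with C and B with D did not differ beyond sampling noise over 2592 genes whose counts were whole, to within 0.001, in all 4 controls (chi-square per degree of freedom 0.994 and 1.0313, p = 0.582 and 0.13), where the other control pairs gave 1.1363 to 1.1936. Each pair was summed and counted as 1 sample, which left 2 control, 4 TRAM2 and 2 YAP5SA samples. This gene set was chosen after the data were seen, and the merging of B and D depends on it. Over the 3704 genes whole in that pair alone, B and D differed (chi-square p = 0.0208), while A and C did not over their 3646 (chi-square p = 0.356). Over all genes averaging 50 counts or more, whole or not, both pairs differed (chi-square p = 2.74e-54 for B and D and 1.13e-60 for A and C). With B and D kept apart, or with all 10 libraries separate, 18 of the 36 genes still rose and 3 fell in MCF10A-YAP5SA against control with 6 called, and 0 passed in MCF10A-TRAM2. YAP1 stood at 187 CPM (counts scaled to library size by TMM) in both control samples, at 181 to 196 CPM in MCF10A-TRAM2 and at 337 and 342 CPM in MCF10A-YAP5SA, and TRAM2 at 28.4 and 28.9, 250 to 611 and 242 and 247 CPM in the same order. By edgeR, TRAM2 rose in MCF10A-YAP5SA (log2 fold change 3.10, adjusted p = 0.0031), while its log2 fold change of 3.90 in MCF10A-TRAM2 did not pass (adjusted p = 0.072), with all 4 TRAM2 samples above both controls. MCF10A-TRAM2 B stood apart from the other 3 libraries of its group on the second principal component (-37.3 against -8.5 to 19.6). Of 8 mammary epithelial markers, 8 were at 1 CPM or more in control and TRAM2 samples (summed level 3410 to 3445 and 3138 to 3649 CPM) and 7 in YAP5SA samples (2636 to 2706 CPM), where TP63 was at 0.0841 and 0.155 CPM. These markers moved in opposite directions in YAP5SA samples: by edgeR CDH1 (log2 fold change -1.97), EPCAM (-2.77), KRT5 (-0.94) and TP63 (-4.45) were called lower, KRT17 (0.73) and KRT18 (0.60) were called higher, and KRT14 and LAMB3 did not pass. The summed leukocyte markers lay between 36.3 and 55.3 CPM, most of it CD68, with CD3E at 0 in every sample. Endothelial markers summed to 9.7 to 10.6, 12 to 17.5 and 2.94 CPM in control, TRAM2 and YAP5SA samples. VWF was at 0 in every sample, and PECAM1 at 7.69 and 7.7, 9.16 to 13.9, and 0.336 and 0.155 CPM. Fibroblast markers summed to 3.25 to 4.2, 2.91 to 3.72 and 1.32 to 1.68 CPM in the same order. In YAP5SA against control, by edgeR, CD14 (log2 fold change -3.63), PECAM1 (-4.95) and COL1A1 (-2.09) were called lower. TEK (2.71), at 0.757 and 0.929 CPM in YAP5SA samples, was called higher. CD68 (0.44) rose without being called, and KDR (-0.33) did not pass. The part of these marker differences in the results below was not tested, and in bulk RNA fewer cells with a transcript and less of it per cell cannot be told apart.

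In MCF10A-YAP5SA cells all 4 SEC61 channel genes, SEC62, SEC63 and 3 of 4 TRAP genes rose, both SRP receptor genes fell, and 0 of 5 signal peptidase genes passed the test. Against MCF10A-control, 18 of the 36 genes rose and 3 fell by edgeR's quasi-likelihood test (adjusted p under 0.05 over all genes tested), where 24.3% of all genes tested rose and 24.4% fell (48.7% in all). The 15 others did not pass. By limma on log2(TPM + 1), 8 of the 36 genes rose and 2 fell, where 4492 of the 15768 genes tested passed. TPM is transcript abundance scaled by length and library. A gene is termed called where its log2 fold change also exceeded 0.5 in size. By that rule 6 of the 36 were called higher, namely SEC61A1, SEC61A2, SEC61B, SEC62, SSR3 and OSTC, and 0 were called lower, against 15.3% and 14.1% of all genes tested. The share of the 36 called in either direction was therefore no larger than the background of 29.4%, and their median log2 fold change was 0.16 against -0.01 over all genes tested. YAP5SA and control samples did not overlap for 31 of the 36 genes, 23 higher and 8 lower, beside 37.3% and 39.4% of all genes tested (76.7% in all).

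In MCF10A-TRAM2 cells 0 of the 36 genes passed against control by edgeR (0.146% of all genes tested passed), and DESeq2 also passed 0. The single gene with an unadjusted p below 0.05 was SRPRB (log2 fold change -0.13), where 12.6% of all genes tested had such a p, and 0 of the 36 were called (0.0571% of all genes tested). The log2 fold changes ran from -0.17 for SSR4 to 0.11 for MAGT1, with a median of 0.00, and the 95% intervals of the 36 genes lay between -0.36 and 0.39. These limits hold for the main fit only. By limma on log2(TPM + 1) the changes ran from -0.16 to 0.49. Over protein-coding transcripts of at least 400 bases, by edgeR, they ran from -1.14 to 0.19, and 0 genes passed in either. Samples of the 2 groups overlapped for 28 of the 36 genes and did not for 8, beside 22.7% of all genes tested. Both comparisons use the same control samples, so their values are given side by side and not set against each other.

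**Figure D1:**
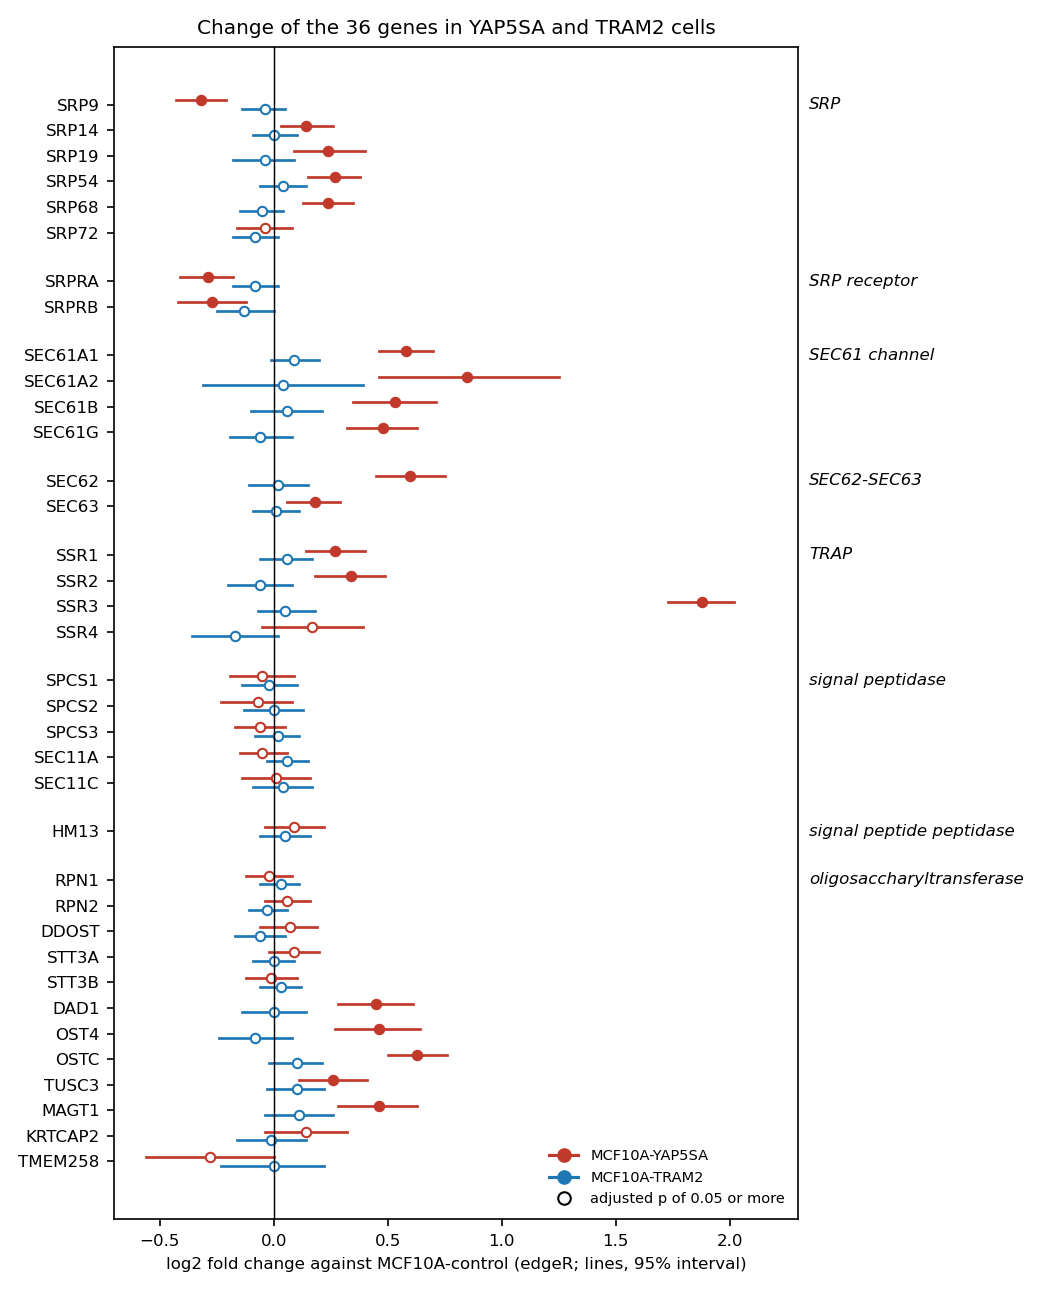
Log2 fold change against MCF10A-control (x axis) of the 36 genes, ordered by complex, in MCF10A-YAP5SA (red) and MCF10A-TRAM2 (blue), with lines for the 95% interval and open points where the edgeR adjusted p was 0.05 or more. The YAP5SA values run from -0.32 for SRP9 to 1.88 for SSR3, and the TRAM2 values lie between -0.17 and 0.11.

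The promoters of the called genes are shown for the 3 among the 4 with the smallest adjusted p whose bases before the start site hold a searched motif. The RefSeq promoter windows (GRCh38.p14, 250 bases before to 50 after each start) matched 30 of the 36 genes with 38 windows, and HM13, RPN1, STT3B, SRPRA, SPCS1 and TUSC3 had no entry. Below are the 250 bases before the start, with capitals for ACGTG (part of the E-box type sequence CACGTG, and CACGT on the other strand) and for GGAATG (a TEAD-type motif, CATTCC on the other strand).
SSR3, chr3:156555118-156555367, minus strand: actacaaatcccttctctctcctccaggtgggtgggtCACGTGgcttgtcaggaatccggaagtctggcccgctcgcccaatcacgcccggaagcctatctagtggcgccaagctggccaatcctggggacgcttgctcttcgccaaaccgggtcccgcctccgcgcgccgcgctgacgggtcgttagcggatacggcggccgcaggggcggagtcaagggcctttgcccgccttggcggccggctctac
SEC62, chr3:169966557-169966806, plus strand: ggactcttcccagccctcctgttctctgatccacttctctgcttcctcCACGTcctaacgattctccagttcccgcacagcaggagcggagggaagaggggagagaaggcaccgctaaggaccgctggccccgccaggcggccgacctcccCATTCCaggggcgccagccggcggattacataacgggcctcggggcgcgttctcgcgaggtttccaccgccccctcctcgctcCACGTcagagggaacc
OSTC, chr4:108650349-108650598, plus strand: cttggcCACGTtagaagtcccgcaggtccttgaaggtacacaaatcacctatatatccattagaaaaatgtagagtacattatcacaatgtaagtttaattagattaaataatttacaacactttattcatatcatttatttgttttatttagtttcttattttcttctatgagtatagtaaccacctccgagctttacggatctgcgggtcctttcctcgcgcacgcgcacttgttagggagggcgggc
The CACGTG of SSR3, which reads as ACGTG on both strands and begins 213 bases before the start, is in the most upstream of its 3 windows, the one shown; the other windows hold further ACGTG matches, and 1 of them GGAATG. SEC62 holds both motifs, with the GGAATG match 99 bases and the ACGTG matches 16 and 202 bases before the start, and OSTC holds ACGTG 244 bases before it. In the 2 windows of SEC61A1 a single ACGTG lies just after the start, and SEC61B and SEC61A2 hold neither motif.

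Over the 30 genes with a window, 17 held ACGTG in at least 1 of their windows, beside 24.9% of the 27305 genes in the table, and 5 held GGAATG, beside 16.7%. None of the 30 held the ER stress element (CCAAT, then 9 bases, then CCACG), which 0.0916% of the genes held. Of the 6 called genes 4 held ACGTG and 2 held GGAATG. The windows of these genes had a median GC content of 63.7%, beside 58.7% over all 35116 windows, and whether base composition has a part in the ACGTG count was not tested. A match is a description of the letters in the window and not a site of binding.

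The signal recognition particle did not move as a unit in MCF10A-YAP5SA. SRP9 and SRP14 form the heterodimer that slows elongation of the nascent chain. SRP9 stood at 219 and 226 CPM in control samples, at 220, 223, 212 and 208 CPM in TRAM2 samples A to D and at 179 and 178 CPM in YAP5SA samples. The YAP5SA samples lay below every other sample, and SRP9 fell by 0.32 on the log2 scale against control (SE 0.05, edgeR adjusted p = 0.00014). SRP14 stood at 299 and 313, at 307, 316, 307 and 294, and at 345 and 330 CPM in the same samples, and rose (log2 fold change 0.14, SE 0.05, adjusted p = 0.032). The YAP5SA samples were the highest for SRP14. Its rise did not pass when either control sample or either YAP5SA sample was left out (log2 fold change 0.12 to 0.18). Nor did it pass without the filter on low counts (edgeR adjusted p = 0.28) or within the first sequencing run (0.057). By limma on log2(TPM + 1) its adjusted p was 0.15. Over protein-coding transcripts of at least 400 bases SRP14 was at 0.08 (edgeR adjusted p = 0.27). The ratio of SRP9 to SRP14 CPM was 0.733 and 0.723 in control, 0.692 to 0.716 in TRAM2 and 0.518 and 0.54 in YAP5SA samples. SRP9P1, an annotated SRP9 pseudogene, was assigned 439 to 841 counts per library, so the split between the 2 loci is uncertain. With pseudogene counts added, SRP9 changed by -0.33 (adjusted p = 7.4e-05).

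SRP54, the subunit that binds the signal peptide and GTP, rose by 0.27 on the log2 scale (edgeR adjusted p = 0.00071), from 80.2 and 77 CPM in control to 95.3 and 93.9 CPM in YAP5SA samples, with TRAM2 samples at 79.9 to 82.1 CPM. SRP68, which with SRP72 forms the large heterodimer of the particle, rose by 0.24 (adjusted p = 0.0012), while SRP72 was at -0.04 (95% interval -0.16 to 0.08). On the log2(TPM + 1) scale, by limma, SRP54 turned to -0.08 (adjusted p = 0.88) and SRP68 went to 0.06 (adjusted p = 0.76), and transcripts of 162 and 165 bases held much of the TPM of these genes. SRP19, which helps SRP54 onto the SRP RNA, rose by 0.24 (edgeR adjusted p = 0.013). It did not pass without control sample 2 (log2 fold change 0.23) or without YAP5SA A (0.16). Nor did it pass without the filter on low counts (edgeR adjusted p = 0.06). DESeq2 gave an adjusted p of 0.052, and limma on log2(TPM + 1) gave 0.16. Over protein-coding transcripts of at least 400 bases SRP19 was at 0.03 (adjusted p = 0.94), and a retained-intron transcript held 50.5% to 67.2% of its TPM.

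Both subunits of the SRP receptor fell in MCF10A-YAP5SA. SRPRA, the subunit that meets SRP54, was at 92.3 and 94.7 CPM in control samples. It was at 88.2, 86.8, 89.2 and 88.7 CPM in TRAM2 and at 78.8 and 73.7 CPM in YAP5SA samples. It fell by 0.29 on the log2 scale (SE 0.05, edgeR adjusted p = 0.00044), and the 3 groups did not overlap, with TRAM2 samples between the others (-0.08, adjusted p = 0.49). By limma on log2(TPM + 1) SRPRA was at -0.13 and did not pass (adjusted p = 0.54). SRPRB, the membrane anchor of the receptor, was at 49.3 and 51.4, at 48.8, 43.5, 45.7 and 46.5, and at 42.5 and 41.2 CPM in the same order. It fell by 0.27 (SE 0.07, edgeR adjusted p = 0.006). SRPRB did not pass without control sample 2 (log2 fold change -0.23) or without YAP5SA B (-0.24). Nor did it pass over protein-coding transcripts of at least 400 bases, where it was at -0.14 (edgeR adjusted p = 0.22). The YAP5SA samples were the lowest for both genes.

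All 4 genes of the SEC61 channel rose in MCF10A-YAP5SA and 0 of 4 passed in MCF10A-TRAM2. SEC61A1, the pore-forming alpha subunit, stood at 143 and 144 CPM in control, at 158, 160, 145 and 150 CPM in TRAM2 and at 218 and 212 CPM in YAP5SA samples. Its log2 fold change in MCF10A-YAP5SA was 0.58 (SE 0.06, edgeR adjusted p = 8.5e-07), and in MCF10A-TRAM2 0.09 (SE 0.05, adjusted p = 0.45). The YAP5SA samples lay above all others, and the TRAM2 samples lay above both controls by a margin that did not pass the test.

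SEC61B and SEC61G encode the small beta and gamma subunits. SEC61B was at 36.7 and 39.5 CPM in control, at 36.6, 43.1, 37.8 and 40.8 CPM in TRAM2 and at 56.5 and 53.5 CPM in YAP5SA samples (log2 fold change 0.53, SE 0.08, edgeR adjusted p = 9.2e-05). SEC61G was at 83.1 and 79.9, at 80.5, 86.0, 76.2 and 71.2, and at 116 and 111 CPM (0.48, SE 0.07, adjusted p = 9.5e-05). Control and TRAM2 samples overlapped for both genes, and YAP5SA samples lay above them. SEC61B lies close to the 0.5 limit for a call, with 0.49 within the first sequencing run, and 0.48 both without control sample 1 and without the filter on low counts, still past the test in each. The ratio of SEC61A1 to SEC61B CPM stayed between 3.65 and 4.32 over the 8 samples.

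SEC61A2, the second alpha subunit gene, was expressed at a far lower level. It stood at 4.44 and 3.99 CPM in control, at 4.32, 4.69, 4.48 and 3.91 CPM in TRAM2 and at 6.73 and 8.52 CPM in YAP5SA samples, where it rose by 0.85 on the log2 scale (SE 0.18, edgeR adjusted p = 0.0013). Its share of the summed counts of both alpha genes was 3.01% and 2.69% in control, 2.55% to 2.99% in TRAM2 and 3.0% and 3.87% in YAP5SA samples, so only 1 of 2 YAP5SA samples lay clearly above the rest. In TPM, transcript abundance scaled by length and library, the share was 5.66% and 8.36%, 5.93% to 16.4% and 11.7% and 11%, so that YAP5SA lay above control and the TRAM2 samples overlapped both. Over protein-coding transcripts of at least 400 bases it was 5.5% and 3.63%, 3.19% to 7.14%, and 5.16% and 7.32%. On that scale YAP5SA and control overlapped. A transcript of 314 bases held between 0 and 63.3% of the SEC61A2 TPM by sample, and limma on log2(TPM + 1) gave 0.93 with an adjusted p of 0.16.

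SEC62 and SEC63 form the accessory complex used mainly by chains that enter after translation, and SEC62 also acts in ER turnover. SEC62 was at 162 and 169 CPM in control, at 188, 162, 161 and 163 CPM in TRAM2 and at 253 and 249 CPM in YAP5SA samples. It was called higher in MCF10A-YAP5SA (log2 fold change 0.60, SE 0.07, edgeR adjusted p = 5.1e-06) and was at 0.02 in MCF10A-TRAM2 (adjusted p = 0.92). TRAM2 A was the highest sample outside the YAP5SA group. SEC63, the J-domain partner that recruits the chaperone BiP, was at 164 and 167, at 172, 169, 158 and 169, and at 187 and 188 CPM, and its rise (0.18, SE 0.05, adjusted p = 0.013) was lost without control sample 1 (adjusted p = 0.078), without YAP5SA A (0.051) or B (0.064), and by limma on log2(TPM + 1), where SEC63 was at 0.11 (0.45). The ratio of SEC62 to SEC63 CPM was 0.983 and 1.01 in control, 0.957 to 1.09 in TRAM2 and 1.35 and 1.33 in YAP5SA samples.

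The largest change of the 36 genes was that of SSR3, which encodes the gamma subunit of TRAP, a complex that sits beside the channel and assists signal peptides that open it poorly. SSR3 stood at 155 and 154 CPM in control, at 159, 177, 150 and 154 CPM in TRAM2 A to D and at 573 and 563 CPM in YAP5SA samples. That is a 3.67-fold rise (log2 fold change 1.88, SE 0.07, edgeR adjusted p = 2.4e-11), the 638th highest log2 fold change of the 15768 genes tested, beside 0.05 in MCF10A-TRAM2 (95% interval -0.07 to 0.18). The YAP5SA samples lay far above the 6 others, and TRAM2 B was the highest of those. Leaving out any 1 sample kept the SSR3 value between 1.88 and 1.90.

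The other subunits of TRAP moved less. SSR1, the alpha subunit, was at 186 and 185 CPM in control, at 205, 200, 177 and 190 CPM in TRAM2 and at 225 and 222 CPM in YAP5SA samples (log2 fold change 0.27, SE 0.06, edgeR adjusted p = 0.0024; 0.16 by limma on log2(TPM + 1), adjusted p = 0.16). SSR2, the beta subunit, was at 59.2 and 58.8, at 50.6 to 59.8, and at 75.4 and 73.5 CPM (0.34, adjusted p = 0.0016). SSR4, the delta subunit, was at 26.9 and 29.3, at 22.3 to 27.3, and at 33.9 and 29.2 CPM, did not pass (0.17, adjusted p = 0.2) and overlapped between control and YAP5SA. The ratio of SSR3 to SSR1 CPM was 0.831 and 0.836 in control, 0.778 to 0.889 in TRAM2 and 2.54 in both YAP5SA samples. Summed over the 4 subunits, TRAP stood at 427 CPM in both control samples, at 411 to 462 CPM in TRAM2 and at 908 and 887 CPM in YAP5SA samples.

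**Figure D2:**
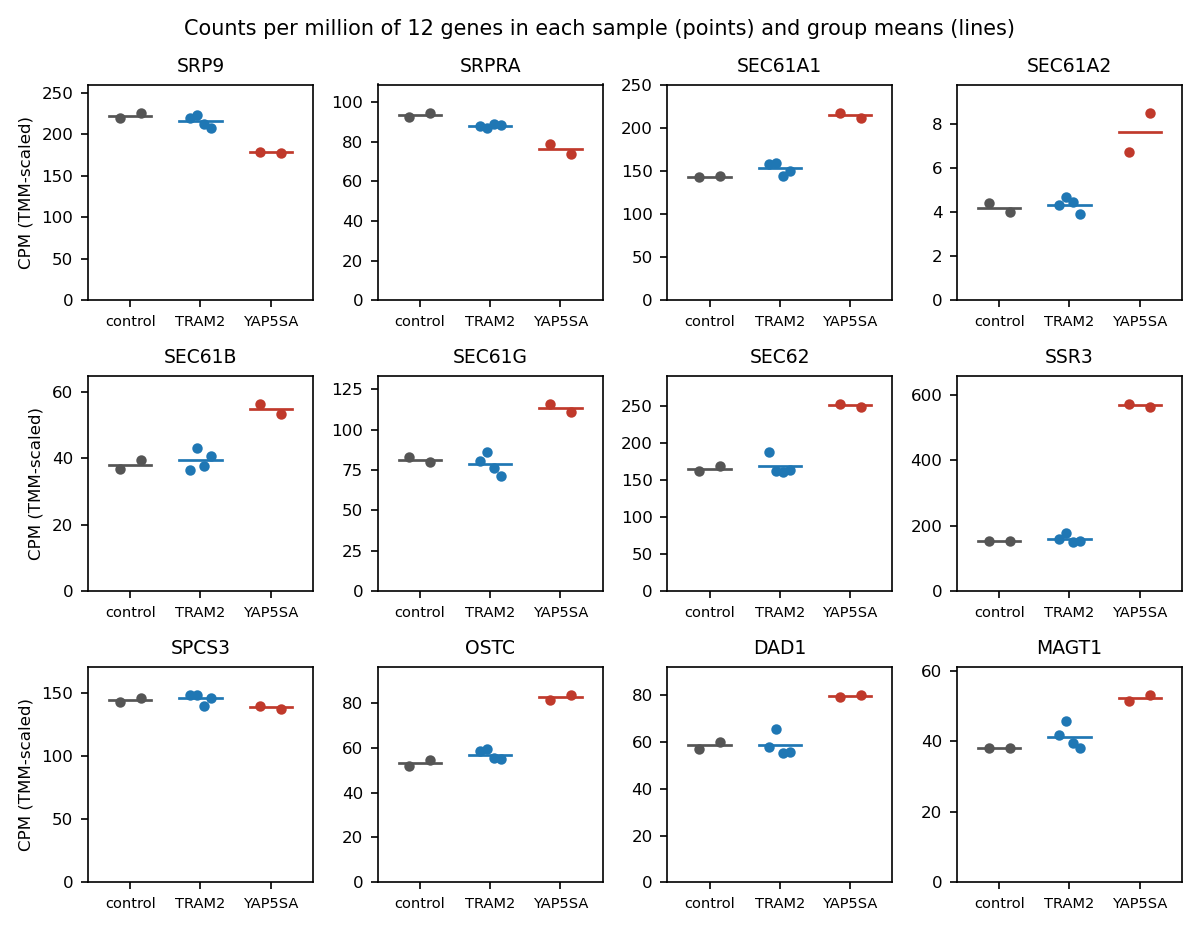
TMM-scaled CPM (y axis, from 0) of 12 of the 36 genes in the 2 MCF10A-control, 4 MCF10A-TRAM2 and 2 MCF10A-YAP5SA samples, with points for samples and lines for group means. SSR3 stands at 563 and 573 CPM in YAP5SA against 150 to 177 CPM elsewhere, SRP9 and SRPRA are lowest in YAP5SA, and SPCS3 lies between 138 and 149 CPM in every sample.

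SSR3, SEC61A1 and SEC62 lie on chromosome 3, as do SRPRB, SPCS1, RPN1 and STT3B among the 36. The 862 tested genes of that chromosome had a median log2 fold change of 0.04 in MCF10A-YAP5SA, and 18.1% of them were called higher. Tested genes that start within 5 Mb of SSR3, SEC61A1 and SEC62 had medians of 0.04, 0.15 and 0.09. RPN1, near SEC61A1, was at -0.02.

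Signal peptidase, which cuts the signal peptide from the chain, showed 0 of 5 genes passed in MCF10A-YAP5SA by edgeR, 0 of them at an unadjusted p under 0.05 (53.9% of all genes tested had one). The log2 fold changes of its 5 genes lay between -0.07 and 0.01 and their 95% intervals between -0.23 and 0.16. SEC11A and SEC11C are the alternative catalytic subunits. SEC11A was at 136 and 139 CPM in control, at 142, 144, 144 and 145 CPM in TRAM2 and at 133 and 134 CPM in YAP5SA samples, and SEC11C at 38.1 and 39.5, at 38.8 to 41.0, and at 40.1 and 37.8 CPM. The 2 YAP5SA samples were the lowest for SEC11A, and the groups overlapped for SEC11C. SEC11C held 27.5% of the pair's TPM in control, 28.0% in TRAM2 and 28.8% in YAP5SA samples on average, and 40.2%, 38.9% and 40.9% over protein-coding transcripts of at least 400 bases. SPCS2, an accessory subunit, was at 58.2 and 59.3, at 54.4 to 63, and at 57.1 and 54.6 CPM. Summed over the 5 genes, signal peptidase stood at 432 and 441, 434 to 450 and 424 and 420 CPM.

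HM13 encodes signal peptide peptidase, which cuts the released peptide within the membrane. It was at 134 and 140 CPM in control, at 148, 148, 135 and 136 CPM in TRAM2 and at 146 and 145 CPM in YAP5SA samples, and did not pass (log2 fold change 0.09, SE 0.06, edgeR adjusted p = 0.24). TRAM2 samples overlapped both other groups. Fitted on the YAP5SA and control samples alone, its adjusted p was 0.04.

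Of the 12 OST genes, 5 rose in MCF10A-YAP5SA by edgeR and 7 did not pass. The 5 were small or accessory subunits, but so are KRTCAP2 and TMEM258, which did not pass. OSTC, the adaptor that holds the STT3A form of OST at the channel, was at 51.9 and 54.5 CPM in control, at 58.3, 59.2, 55.3 and 55.0 CPM in TRAM2 and at 81.2 and 83.6 CPM in YAP5SA samples. It was called higher in MCF10A-YAP5SA (log2 fold change 0.63, SE 0.06, edgeR adjusted p = 1e-06). All 4 TRAM2 samples lay above both controls, by 0.10 on the log2 scale, which did not pass (adjusted p = 0.49).

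DAD1 and OST4 are small subunits shared by both forms of OST. DAD1 was at 57.1 and 60.2, at 57.8, 65.7, 55.5 and 55.8, and at 79.4 and 80.3 CPM (log2 fold change 0.45, SE 0.08, edgeR adjusted p = 0.00024). OST4 was at 33.5 and 33.7, at 34.4, 29.6, 30.9 and 32.4, and at 49.6 and 43.0 CPM (0.46, SE 0.09, adjusted p = 0.00048). In both genes the YAP5SA samples lay above the other 6.

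MAGT1 and TUSC3 are alternative oxidoreductase subunits of the STT3B form, which glycosylates sites that the first form has missed. MAGT1 was at 38.0 and 38.2, at 41.9, 45.7, 39.4 and 38.1, and at 51.5 and 53.2 CPM (0.46, SE 0.08, edgeR adjusted p = 0.00033). TUSC3 was at 73.2 and 73.1, at 71.8, 84.7, 78.0 and 78.1, and at 85.9 and 89.3 CPM, and its rise (0.26, SE 0.07, adjusted p = 0.006) was lost without YAP5SA B (0.059). YAP5SA samples were the highest for both genes, with TRAM2 B next. TUSC3 held 83.0%, 83.1% and 80.4% of the pair's TPM in control, TRAM2 and YAP5SA samples on average.

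The catalytic subunits of OST did not pass. STT3A, which acts as the chain passes the channel, was at 142 and 143, at 147, 141, 141 and 141, and at 148 and 154 CPM (log2 fold change 0.09, 95% interval -0.02 to 0.20, edgeR adjusted p = 0.17, and 0.04 with the YAP5SA and control samples fitted alone). STT3B was at 222 and 220, at 231, 217, 231 and 224, and at 225 and 215 CPM (-0.01, 95% interval -0.12 to 0.10). YAP5SA samples were the highest for STT3A by a few CPM and overlapped control for STT3B. STT3B held 59.5%, 60.4% and 56.1% of the pair's TPM in control, TRAM2 and YAP5SA samples on average, but 35.2%, 36.1% and 34.1% over protein-coding transcripts of at least 400 bases, since a retained-intron transcript of 436 bases held 60.5% to 67.2% of the STT3B TPM.

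The remaining OST subunits did not pass either. RPN1, RPN2 and DDOST, the large structural subunits, were at log2 fold changes of -0.02, 0.06 and 0.07. KRTCAP2 was at 0.14 (adjusted p = 0.21), with 60.9% of its counts assigned to a transcript annotated as a long non-coding RNA, so that its value is mostly not that of the coding transcript. TMEM258, at 7.48 to 9.53 CPM over all samples, was at -0.28 (adjusted p = 0.091). A transcript annotated for nonsense-mediated decay held 41.5% of its counts on average, so its value is in part not that of coding transcripts. Over protein-coding transcripts of at least 400 bases, TMEM258 stood at 4.79 ± 0.57 TPM (SD) in control samples. On that scale it was at 1.97 ± 1.4 TPM in TRAM2 and 2.38 ± 1.7 TPM in YAP5SA samples. The ratio of OSTC to STT3A CPM was 0.366 and 0.382 in control, 0.392 to 0.42 in TRAM2 and 0.548 and 0.542 in YAP5SA samples.

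Against MCF10A-TRAM2, 19 of the 36 genes rose in MCF10A-YAP5SA, 3 fell and 14 did not pass (26.3% and 24.9% of all genes tested rose and fell, 51.2% in all), and the median log2 fold change was 0.16. SEC61A2, SEC61G, SEC62, SSR3, OST4 and OSTC were called higher and 0 genes lower, beside 14.9% and 14.6% of all genes tested. The groups did not overlap for 29 of the 36 genes, 23 higher and 6 lower, beside 31.4% and 30.5% (61.9% in all). SEC61A1 and SEC61B rose by 0.49 and 0.47, just under the limit for a call. SSR4 rose (0.34, adjusted p = 0.0071) and SEC11A fell (-0.11, adjusted p = 0.045), the former lost without YAP5SA A (adjusted p = 0.14) and the latter by DESeq2 (0.13) and in most other alternatives. TUSC3 rose (0.16, adjusted p = 0.035) and was likewise lost in most alternatives, SRP14 (0.16) and SRP19 (0.057) were lost without YAP5SA A, and SRPRA (0.069) and SEC63 (0.062) without YAP5SA B. Without MCF10A-TRAM2 B, 9 genes were called. The TRAM2 transcript stood at 428 ± 150 CPM (SD, n = 4) in MCF10A-TRAM2 and 245 ± 3.6 CPM (n = 2) in MCF10A-YAP5SA, a difference that did not pass by edgeR (adjusted p = 0.12), and its paralogue TRAM1 stood at 117 and 121, 120 to 142 and 307 CPM in control, TRAM2 and both YAP5SA samples.

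By file name, the A and B libraries came from a first and the C and D libraries from a second sequencing run, and both YAP5SA libraries were in the first. Within the first run, 17 of the 36 genes rose and 3 fell in MCF10A-YAP5SA against control, with 5 called, and SSR3 was at 1.86. For MCF10A-TRAM2 against control, 0 genes passed in either run, with medians of 0.02 and -0.02.

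Levels between genes were compared as TPM. In control samples the sums over all annotated transcripts ran from 2.3 TPM for SEC61A2 to 531 TPM for SRP14, but many were carried by short or non-coding transcripts. A transcript of 162 bases held between 55.8% and 74.6% of the SRP54 TPM and 1.81% of its counts, and a transcript of 271 bases held 87.1% to 95% of the KRTCAP2 TPM. Summed over protein-coding transcripts of at least 400 bases, a choice made after seeing these values, SRP14 (298 ± 5.1 TPM, SD, n = 2 control samples), SEC61G (193 ± 9.2) and RPN2 (168 ± 2.6) were the most abundant. SRP9 (93.9 ± 0.58), DAD1 (77.7 ± 2.3), OST4 (75.4 ± 0.43) and SSR3 (65.2 ± 2.3) came next, with DAD1 and OST4 within their spread of each other. In that sum KRTCAP2 went from 364 to 5.0 TPM, SRP68 from 216 to 13 and SPCS2 from 333 to 52.4, while SEC61B (53.1 from 53.5 TPM) and OST4 hardly moved. SSR3 stood at 224 ± 2.5 TPM in YAP5SA samples on this scale.

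**Figure D3:**
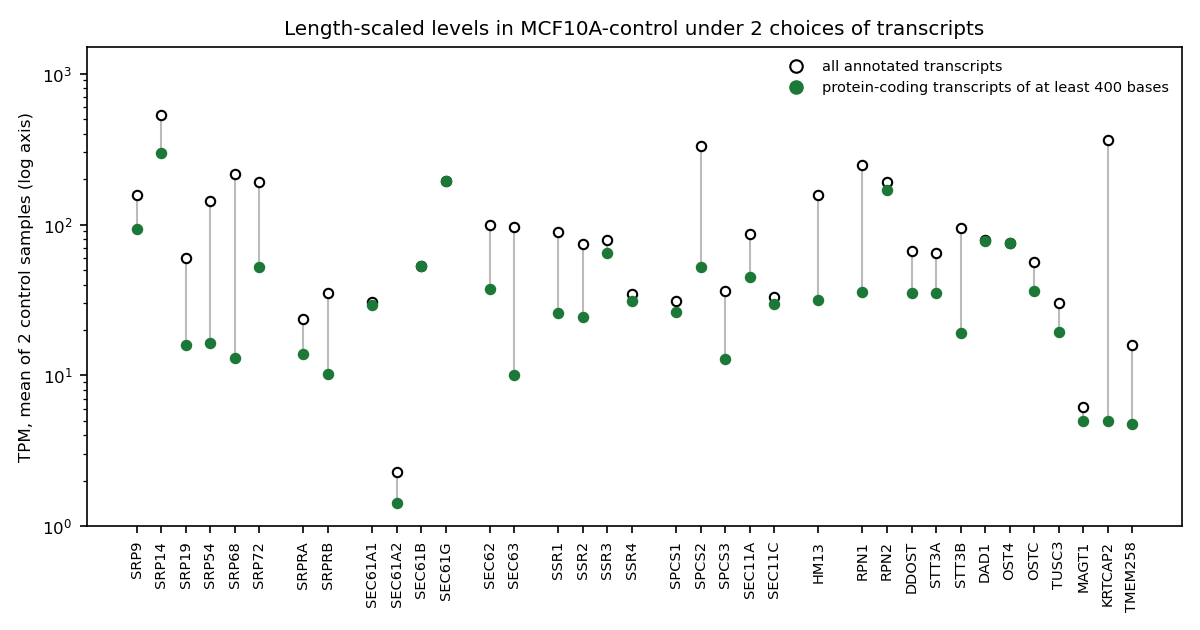
TPM (log axis, mean of 2 MCF10A-control samples) of the 36 genes, summed over all annotated transcripts (open points) and over protein-coding transcripts of at least 400 bases (green), ordered by complex. The open point of KRTCAP2 lies at 364 TPM and its green point at 5.0 TPM, while the points of SEC61B nearly coincide.

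Genes that work next to this machinery were read from lists by pathway. Of 13 genes of N-glycan trimming and the calnexin cycle, 9 rose and 0 fell in MCF10A-YAP5SA against control (24.3% and 24.4% of all genes tested), with a median log2 fold change of 0.25. Among them 1 was called higher and 0 lower, beside 15.3% and 14.1% of all genes tested. EDEM1, which takes misfolded glycoproteins towards degradation, was called higher (0.58, SE 0.09, edgeR adjusted p = 0.00032), from 70.0 and 69.3 CPM in control to 106 and 102 CPM in YAP5SA samples, with TRAM2 at 74.2 to 93.1 CPM. Of 24 genes that build the lipid-linked glycan which OST transfers, 2 rose and 8 fell, with a median of -0.16. Of these 24 genes 4 were called lower and 0 higher, beside 14.1% and 15.3% of all genes tested. ALG3, a mannosyltransferase, fell from 52.2 and 54.2 to 34.3 and 36.9 CPM (-0.58, adjusted p = 2.2e-05), with TRAM2 at 47.4 to 54.0 CPM. ALG1, the first mannosyltransferase, was called lower at -0.55 and ALG6, a glucosyltransferase, at -0.64. ALG10B was called lower at -0.98, and since ALG10 is a close copy, the split between both is uncertain.

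Of 10 tested subunits of the ER membrane protein complex, an alternative insertase, 3 rose and 2 fell, with 0 called by edgeR and 5 at an unadjusted p under 0.05, beside 48.7% of all genes tested that passed and 53.9% with such a p. Those that rose were EMC1 (0.31, edgeR adjusted p = 0.00052), EMC4 (0.20, adjusted p = 0.018) and EMC7 (0.36, adjusted p = 0.011). Those that fell were EMC10 (-0.31, adjusted p = 0.0042) and EMC2 (-0.27, adjusted p = 0.0075). Of 8 multipass translocon genes, 1 rose and 2 fell, and 0 were called, with CCDC47, a subunit that binds the channel, falling by 0.19 (adjusted p = 0.006). NOMO1 was at 0.14 (adjusted p = 0.026), but NOMO1, NOMO2 and NOMO3 are near-identical copies between which counts cannot be split with confidence. Of 7 genes of tail-anchored protein insertion, 2 rose and 0 fell, beside 24.3% and 24.4% of all genes tested. Here WRB, the membrane receptor subunit also named GET1, was called higher (0.55, adjusted p = 0.0039), as 15.3% of all genes tested were. In MCF10A-TRAM2 0 genes of these 5 lists passed by edgeR against control, with 0 to 3 a list at an unadjusted p under 0.05, beside 12.6% of all genes tested.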

How the data were processed

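Polyadenylated RNA of 10 MCF10A libraries was measured. The authors trimmed adapters with cutadapt and quantified transcripts with Salmon, per the submitters' processing notes; for that run the versions, build, annotation release and strand setting were not given in the sources used here. As to library kits, the labels name TruSeq RNA and the methods a stranded version, so strandedness is uncertain. The deposited tables hold per transcript the estimated counts and TPM that the authors' Salmon run gave, with 2 lengths as other values. Estimated counts of 226030 transcripts were summed per gene and rounded, and control libraries A with C and B with D were summed, from a chi-square test over 2592 genes whole in all 4 controls (tolerance 0.001), a gene set chosen after the data were seen. Genes with low counts were filtered (filterByExpr), scaled by TMM and tested with edgeR 4.0.16 (quasi-likelihood, robust, all 3 groups in 1 fit, Benjamini-Hochberg over 15768 genes), after the steps were tested on simulated data. DESeq2 1.42.0, which the authors used, and limma 3.58.1 on log2(TPM + 1) and log2(TPM + 0.1) were alternatives, run in R 4.3.3, with other scaling, no filter, 10 separate libraries, a replicate block, single runs, left-out samples, added pseudogenes and, chosen after seeing the data, control B and D kept apart and coding transcripts of at least 400 bases. Estimated counts of a gene with close copies or overlapping neighbours depend on how reads were assigned. Levels are given with their SD over samples, and library totals of 8489854 to 16314438 set the counting precision.

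Members and lists were chosen with earlier results of these data known, so no list was tested as a set. Full values are given for genes called, for alternative subunit pairs and for the most abundant member of each complex by TPM, and of each neighbouring list up to 4 called genes or, with none called, those of highest CPM; other genes were named after their values were seen. Gene positions for the chromosome comparison came from GENCODE v44 on GRCh37, matched by gene ID for 15568 of 15768 genes.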

Additional observations from a re-analysis of the deposited data

Results flagged for a closer look

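Within MCF10A-TRAM2, a test for outlying samples flagged sample A for 3 of the 36 genes, by the gap relative to the range and not by its size. SEC62 was at 188 CPM in TRAM2 A against 161 to 163 CPM in B to D. SPCS1, a subunit of signal peptidase, was at 52.1 CPM in TRAM2 A against 57.0 to 57.6 CPM. STT3A was at 147 CPM in TRAM2 A against 141 CPM in the others. The test used (Dixon, 4 samples) picks about 1 group in 20 by chance, and the groups of 2 samples could not be tested this way.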

How the results depend on the processing

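For MCF10A-TRAM2 against control the alternatives gave 792 values of the 36 genes, and 0 passed. The number called for MCF10A-YAP5SA against control was 5 to 8 with 1 sample left out, and 5 to 9 against MCF10A-TRAM2. Only limma on log2 TPM moved the counts by more than 1.5 times: 3 called with log2(TPM + 1) and 10 passed with either pseudocount against control, and against MCF10A-TRAM2 1 called with log2(TPM + 1), 2 with log2(TPM + 0.1) and 10 passed with either. Under both pseudocounts SRP54 turned to -0.08 against control and to -0.02 against MCF10A-TRAM2, and SRP68 to -0.04 against MCF10A-TRAM2. The cause was not tested.

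Same-lettered libraries did not deviate together from their group means (correlations of -0.031 to 0.035, beside -0.057 to 0.057 for other letters). With 2 YAP5SA libraries such deviations mirror each other, so these values cannot decide whether the letters pair cultures. With the replicate block, 6 genes were called and 21 passed against control, and 5 were called and 22 passed against MCF10A-TRAM2. Over all genes tested, MCF10A-TRAM2 against control gave 9 calls, 19 by DESeq2, 136 without the filter, 67 with 10 libraries, 41 with control B and D kept apart, 69 with the replicate block, 25 and 97 in the first and second run, 1 and 4 by limma, 4 with coding transcripts of at least 400 bases, 3 without control sample 2, and 19 or 39 without TRAM2 A or B, with 0 of the 36 genes among those that passed in each. The 2 samples of control and YAP5SA and the shared controls limit every comparison, and SEC61A2 and TMEM258, under 10 CPM, have the widest intervals.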
